A study of Mus musculus with 3 samples.

Results

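Cxcl9, Cxcl10 and Cxcr3 were followed across the immune cells of the inflamed sciatic nerve in 3 single-cell RNA-Seq libraries. The members were 3 of the 32285 gene rows of the count matrices, and were taken by name. The nerves were taken from NOD.AireGW/+ mice with neuropathy and sorted for CD45, the marker of blood-derived cells. These mice carry 1 mutant copy of Aire, the thymic regulator of self-antigen expression, on the autoimmune-prone NOD background and develop a spontaneous autoimmune neuropathy. A single mouse gave library 1, another gave library 2, and 2 mice were pooled for library 3. The mice were female per the study's methods, and their ages were not given in the sources used here. All 3 libraries belong to this 1 group, with no untreated or non-neuropathic group among them, so that every comparison below is between cell classes or between cells of the same nerves.

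Cxcl9 and Cxcl10 encode small secreted chemokines that interferon-γ induces strongly, and Cxcl10 also responds to type I interferon and to NF-kappaB. Both bind Cxcr3, a G protein–coupled receptor found mainly on effector T cells, on part of the Foxp3+ regulatory T cells and on NK cells, whose expression is driven by the type 1 transcription factor T-bet (Tbx21). In inflamed tissue the ligands are known from myeloid and stromal cells and the receptor from the lymphocytes that enter, and the T cells make the interferon-γ that feeds back on the ligands. Cells of the nerve that are not of blood origin (Schwann cells, endothelium and fibroblasts), which can also make these ligands, were removed by the CD45 sort, and their level was not measured.

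On mm10, the build of the count files, the ligand genes lie side by side on the minus strand of chromosome 5. Cxcl9 (ENSMUSG00000029417) occupies chr5:92321347-92328079 and Cxcl10 (ENSMUSG00000034855) chr5:92346638-92348889, with their starts 20810 bases apart. Cxcr3 (ENSMUSG00000050232) lies on the minus strand at chrX:101731535-101734269. The 250 bases before the start of each ligand gene are shown as background, and no link between these sequences and the levels below was tested. They are RefSeq sequence of GRCm38.p6 for the minus strand, chr5:92328080-92328329 for Cxcl9 and chr5:92348890-92349139 for Cxcl10, with capitals marking matches of the core of the interferon-stimulated response element (ISRE), written as GAAA, any 2 bases and GAAA, and of the NF-kappaB consensus.
Cxcl9: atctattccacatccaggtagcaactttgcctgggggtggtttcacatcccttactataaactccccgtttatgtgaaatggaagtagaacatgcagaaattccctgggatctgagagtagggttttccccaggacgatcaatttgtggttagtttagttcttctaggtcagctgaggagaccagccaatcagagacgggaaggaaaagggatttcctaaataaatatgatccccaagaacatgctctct
Cxcl10: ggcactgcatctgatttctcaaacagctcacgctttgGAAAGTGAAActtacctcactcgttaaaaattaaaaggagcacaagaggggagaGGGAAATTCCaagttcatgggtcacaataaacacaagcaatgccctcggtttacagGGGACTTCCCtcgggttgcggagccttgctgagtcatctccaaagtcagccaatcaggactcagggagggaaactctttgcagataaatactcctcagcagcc
The Cxcl10 sequence holds 1 ISRE core, beginning 213 bases before the start, and NF-kappaB matches at 159 and 103 bases, none of which overlap. Of 32851 RefSeq promoter windows of the same length searched on both strands, 2.98% hold an ISRE core and 3.899% an NF-kappaB match. The Cxcl9 window holds neither as written, and no γ-activated site written as TTCNNNGAA, which is present in 7.02% of windows. Only exact matches to these letters were counted, so other forms of interferon or NF-kappaB elements in either window would be missed. Both ligand windows hold a CCAAT box (33.9% of windows), at 65 bases in Cxcl9 and at 54 bases in Cxcl10, and Cxcl9 holds TATAAA (12.4% of windows) at 195 bases. The Cxcr3 window (chrX:101734148-101734397) precedes the RefSeq start, which lies inside the gene as placed above, so it overlaps that gene's first part, and it holds none of these letters.

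Cells were assigned to 8 classes from marker genes, none of which was a member: macrophages, monocytes, dendritic cells, B cells, CD4 T cells without Foxp3, CD8 T cells, Foxp3+ T cells and NK cells. Of the 3848, 8256 and 1533 cells kept in libraries 1 to 3, 2608, 5094 and 671 fell into exactly 1 class. Median depth was 3956, 4633 and 1726 unique molecular identifiers (UMIs) per kept cell, so library 3 was the shallowest and its zeros carry the least information. Macrophages came almost wholly from library 2, with 1948 cells against 14 in library 1, and the 5 in library 3 were too few to be summed. Some genes outside the gates followed the labels clearly. Lyz2, the myeloid lysozyme, stood at 5674 to 8498 counts per 1e6 UMIs (CPM) in the monocytes. Gzma stood at 3360 to 3695 CPM in the NK cells and Il2ra at 218.6 to 241.4 CPM in the Foxp3+ cells. Others were less sharp. Within library 1, Ccr2 read 893.1 CPM for monocytes and 573.3 CPM for macrophages, though library 2 gave 358.5 and 38.3 CPM. Apoe read 8694 CPM for library 2 monocytes, below that library's macrophages (32640 CPM) but above library 1 macrophages (4305 CPM). Ighm was highest in B cells, yet library 1 gave them 365.1 CPM, dendritic cells 326.4 CPM and Foxp3+ cells 287.1 CPM. The B cell class also held plasma cells, with the plasma cell gene Jchain at 5635 to 26010 CPM. Cell barcodes found in both of a pair of libraries numbered 36 between libraries 1 and 2, 7 between 1 and 3, and 14 between 2 and 3.

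Cxcl9 was a transcript of macrophages, monocytes and dendritic cells. Its level, in CPM of the UMIs summed per class and library after TMM scaling, was 1973 in the macrophages of library 1 and 1209 in those of library 2 (mean 1591 ± 540.2, SD, n = 2). Monocytes stood at 1004, 935.2 and 352.1 CPM in libraries 1 to 3 (763.8 ± 358.2, SD, n = 3). Dendritic cells stood at 309, 279.3 and 71.9 CPM (220.1 ± 129.1, SD, n = 3). In these scaled values the order within every library with the classes was macrophages, monocytes, dendritic cells. Monocytes exceeded dendritic cells by 1.90 ± 0.32 on the log2 scale (SD over 3 libraries). The step from monocytes to macrophages was less firm. In library 2 it was absent without scaling, at 770.1 CPM in monocytes and 776.7 CPM in macrophages. As a mean over cells it was reversed there, at 801.2 and 752.9 CPM, and library 1 had 14 macrophages. Outside these classes Cxcl9 fell away, to 5.22 to 8.51 CPM in CD4 cells, 0.573 to 5.75 CPM in CD8 cells and 0 to 3.85 CPM in B cells. NK cells held no Cxcl9 UMI in 150 cells and 625204 UMIs, which allows up to 2.0% of cells with a UMI and 4.80 CPM at 3 counts over the class. Against that floor, set in unscaled CPM pooled over libraries, Cxcl9 was at least 165-fold higher in macrophages, 170-fold higher in monocytes and 55.6-fold higher in dendritic cells. In bulk sums such as these, fewer positive cells and less RNA per cell cannot be told apart; shares of cells are given further on.

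Cxcl10 shared the top of this order but not its floor. Macrophages stood at 1379 CPM in library 1 and 394.4 CPM in library 2 (886.7 ± 696.2, SD, n = 2), and monocytes at 1034, 792.7 and 397.6 CPM (741.4 ± 321.3, SD, n = 3), with no separation between these classes. The macrophage value of library 1 rested largely on 1 of 14 cells, which held 112 of the 160 UMIs. Dendritic cells stood at 162.8 and 90.3 CPM in libraries 1 and 2 and held no Cxcl10 UMI in the 16 cells of library 3. In library 1, 1 dendritic cell held 152 of the 217 UMIs. T cells of libraries 1 and 2 were not near 0. CD4 cells stood at 72.6, 81.6 and 44.4 CPM, Foxp3+ cells at 66.8, 72.1 and 13.9 CPM, and CD8 cells at 45.1, 52.7 and 0 CPM. B cells stood at 47.5, 78.9 and 0 CPM, and NK cells, with 8 UMIs in all, at 18.1, 6.75 and 0 CPM. From dendritic cells downward, no neighbours in the order of Cxcl10 differed by more than 1 SD of their within-library difference, whereas monocytes exceeded dendritic cells in all 3 libraries.

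The tests on class sums, by edgeR's quasi-likelihood test with library as a block and p-values adjusted over 9206 genes, separated the classes for both ligands. In the 3 myeloid classes against the 5 lymphoid ones, where 54.9% of genes were called, Cxcl9 was higher by 8.17 on the log2 scale (SE 0.34, adjusted p = 4.84e-17) and Cxcl10 by 3.37 (SE 0.26, adjusted p = 8.88e-12). The Cxcl9 value depends on how the NK zeros are treated and is no bound, and it was 9.36 without library 2. Macrophages against dendritic cells (26.4% of genes called) gave 2.43 for Cxcl9 (SE 0.41, adjusted p = 4.28e-05) and 2.76 for Cxcl10 (SE 0.47, adjusted p = 4.67e-05). The latter was 1.53 when sums needed at least 20 cells, which left out the macrophages of library 1 (adjusted p = 0.00582), and the former 3.696 without the deepest 5% of cells. Monocytes against dendritic cells (20.1% called) gave 1.86 for Cxcl9 (SE 0.39, adjusted p = 0.000734) and 3.15 for Cxcl10 (SE 0.45, adjusted p = 7.10e-06). The Cxcl9 call in that last pair was lost with DESeq2 (1.93, adjusted p = 0.167), while the size stayed. Macrophages against monocytes (4.07% called) left both ligands uncalled, at 0.58 for Cxcl9 (SE 0.40, adjusted p = 0.496) and -0.38 for Cxcl10 (SE 0.46, adjusted p = 0.728). For Cxcl10 the value was -1.46 without library 1 (adjusted p = 0.116) and 0.30 without library 2, and a gate that allowed no UMI of another lineage gave -1.39 (adjusted p = 0.0229). Cxcl10 of library 1 was higher in macrophages, where 1 cell held 112 of 160 UMIs, than in monocytes, and that of library 2 lower.

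The balance of the ligands differed between classes in the same way in both deep libraries. Monocytes held 1.03, 0.848 and 1.13 Cxcl10 UMIs for each Cxcl9 UMI in libraries 1 to 3. Macrophages held 0.699 and 0.326 in libraries 1 and 2, and dendritic cells 0.527 and 0.323, so both were tilted to Cxcl9 relative to monocytes. CD4 cells were tilted the other way, with 12.0 and 9.58 Cxcl10 UMIs for each Cxcl9 UMI, and CD8 cells of library 2 had 9.17. Of the Cxcl9 UMIs behind these lymphoid ratios, 15 of 15 and 20 of 24 in CD4 cells and 20 of 24 in CD8 cells lay in cells with over 5 UMIs of MHC class II genes and Lyz2. These ratios were not tested.

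Most Cxcl9 and Cxcl10 UMIs of the nerve were counted in macrophages or in cells that no single class claimed. In library 2, macrophages were 23.6% of the cells and held 56.9% of the 19644 Cxcl9 UMIs and 45.2% of the 8066 Cxcl10 UMIs. In library 1, where macrophages were 0.364% of the cells, dendritic cells held 15.03%, monocytes 13.3% and macrophages 8.35% of the 2742 Cxcl9 UMIs. The 169 Cxcl9 UMIs of library 3 rested on few cells, since 65 of them lay in 1 macrophage. Cells in no class held 54.9%, 36.7% and 35.5% of the Cxcl9 UMIs of libraries 1 to 3. In libraries 1 and 2 most of these lay in 313 and 1348 cells with markers of at least 2 lineages, which held 52.4% and 30.9% of all Cxcl9 UMIs and 51.2% and 29.0% of all Cxcl10 UMIs. Such barcodes can be doublets, and doublets were not called, so how far the class levels describe these cells was not tested. Cxcr3 was spread differently: T and NK classes together with ungated cells of T markers held most of it, and Foxp3+ cells, at 13.8%, 6.77% and 7.11% of the cells, held 28.2%, 16.5% and 15.3% of the Cxcr3 UMIs.

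**Figure D1:**
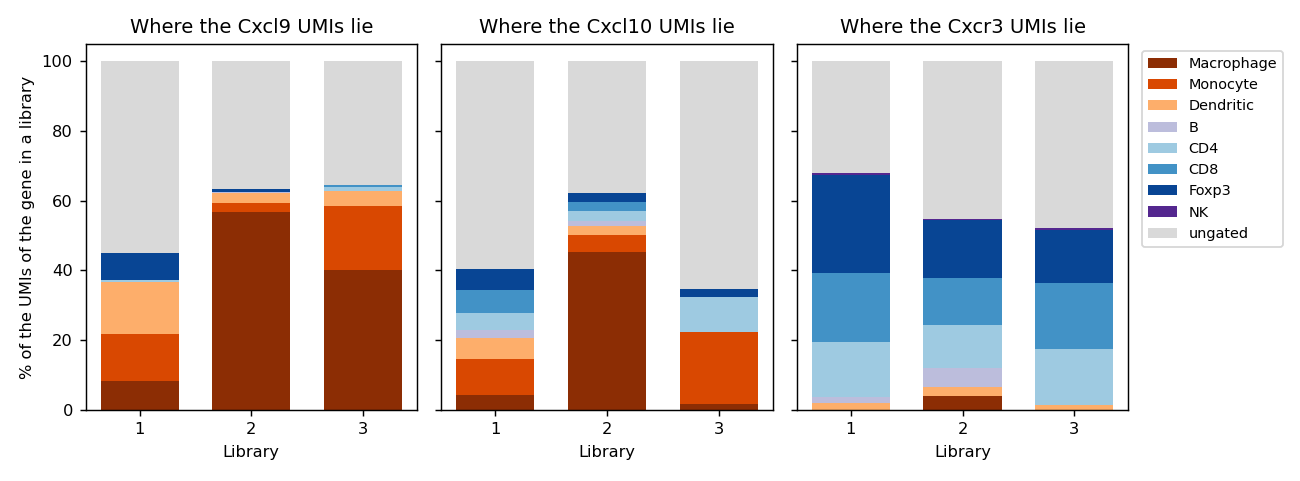
Share of the UMIs of each gene, in percent of its UMIs in a library, that lay in each cell class or in cells of no class (grey), for the 3 libraries. Macrophages hold 56.9% of Cxcl9 in library 2, and Foxp3 cells hold the largest share of Cxcr3 of any class in libraries 1 and 2.

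In single cells the ligands were patchy. With each cell thinned to 1000 UMIs, a Cxcl9 UMI was found in 57.1% of macrophages of library 1 and 29.3% of those of library 2 (exact 95% binomial interval for library 2, 27.3% to 31.4%, counting error only). Monocytes gave 32.7%, 33.1% and 16.7% in libraries 1 to 3, and dendritic cells 9.33% ± 3.96 (SD, n = 3). CD4, CD8 and NK cells set the background, with means of 0.480%, 0.144% and 0%, at median depths of 1815 to 4184 UMIs before thinning in these 3 classes against 2097 to 10942 in the myeloid classes. Unthinned mean shares were 63.0% of macrophages and 37.3% of monocytes. In library 2 the 10% of macrophages with the most Cxcl9 held 64.5% of the UMIs of the class, up to 151 in 1 cell, and the top 10% of dendritic cells in library 1 held 95.6%. Cxcl10 was found, after thinning, in 24.0% of monocytes (SD 11.4, n = 3), 35.7% and 12.4% of macrophages of libraries 1 and 2 and 2.33% of dendritic cells (SD 2.26, n = 3).

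Cells with both ligands were set against the product of the separate shares, mainly in library 2, which had the most macrophages. Both transcripts were found in 109 of 1898 thinned macrophages, against 68.8 cells from the product of the separate shares, a ratio of 1.58 (1.32 unthinned). Of macrophages with Cxcl10, 46.4% had Cxcl9, against 26.9% of those without. In monocytes both were found in 10 of 127 cells against 11.9 from the product (0.840, or 1.01 unthinned), and in library 1 in 7 of 49 against 5.22. Macrophages of library 1 held both in 2 of 14 thinned cells against 2.86 (0.700, or 1.05 unthinned). Dendritic cells held both in 2 of 281 thinned cells, too few to read. Unthinned, dendritic cells held both in 5 cells against 2.40 from the product in library 1 (2.09). In library 2 it was 11 against 4.75 (2.32). These counts are from cells of 1 mouse each and were not tested.

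**Figure D2:**
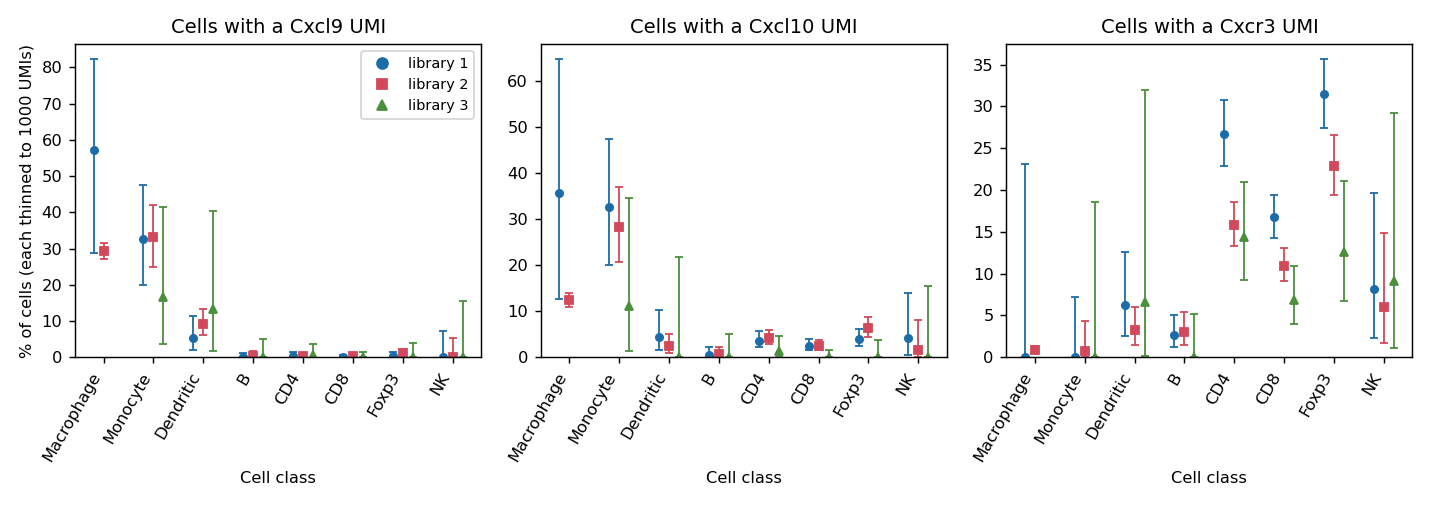
Share of cells with at least 1 UMI of each gene, in percent, after every cell was thinned to 1000 UMIs, by class and library, with exact 95% binomial intervals that cover counting error only. Cxcl9 and Cxcl10 stand out in macrophages and monocytes, and Cxcr3 in CD4, CD8 and Foxp3 cells, with library 1 highest in all 3 T cell classes.

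Among dendritic cells of libraries 1 and 2, each of the 3 genes had its highest CPM in a different subset, though none was confined to 1 subset. The subsets were set by Xcr1 and Clec9a (type 1), Cd209a (type 2), Fscn1 with Ccr7 (mature) and Siglech (plasmacytoid), and values here are unscaled CPM with exact Poisson 95% intervals for counting error. Mature cells had the highest Cxcl9, at 1245 CPM (1013 to 1515) in the 8 cells of library 1 and 440.6 CPM (381.6 to 506) in the 52 of library 2. It was found in 3 of those 8 cells and in 23 of the 52. Type 1 cells, which cross-present antigen to CD8 T cells, had 436.5 and 224.8 CPM. Plasmacytoid cells had 114.8 and 14.2 CPM, and the first of these came from 2 of 55 cells. Type 2 cells were not alike, with no Cxcl9 in 9 cells of library 1 and 350.1 CPM in 19 cells of library 2. The interval of the latter (255.4 to 468.5) overlapped that of the mature cells of library 2. Cxcl10 lay mainly in type 2 cells, at 1608 and 536.8 CPM, but in only 3 cells of each library, while it stayed between 24.2 and 161.9 CPM in type 1 and mature cells. By CPM, Cxcr3 was highest in plasmacytoid cells. Plasmacytoid cells had 99.3, 72.8 and 109 CPM in libraries 1 to 3, with a UMI in 54.5%, 24.3% and 28.6% of them before thinning. Type 1 cells had 25.3 and 41.9 CPM in libraries 1 and 2. Before thinning, a UMI was found in 30.3% and 36.0% of these type 1 cells, so that by share of cells they led in library 2. Depth differed there, since the 89 type 1 cells held 1169721 UMIs and the 103 plasmacytoid cells 494364. Mature and type 2 cells held at most 3 UMIs in a library. The subset values were not tested, and library 3 had at most 7 cells of a subset.

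**Figure D3:**
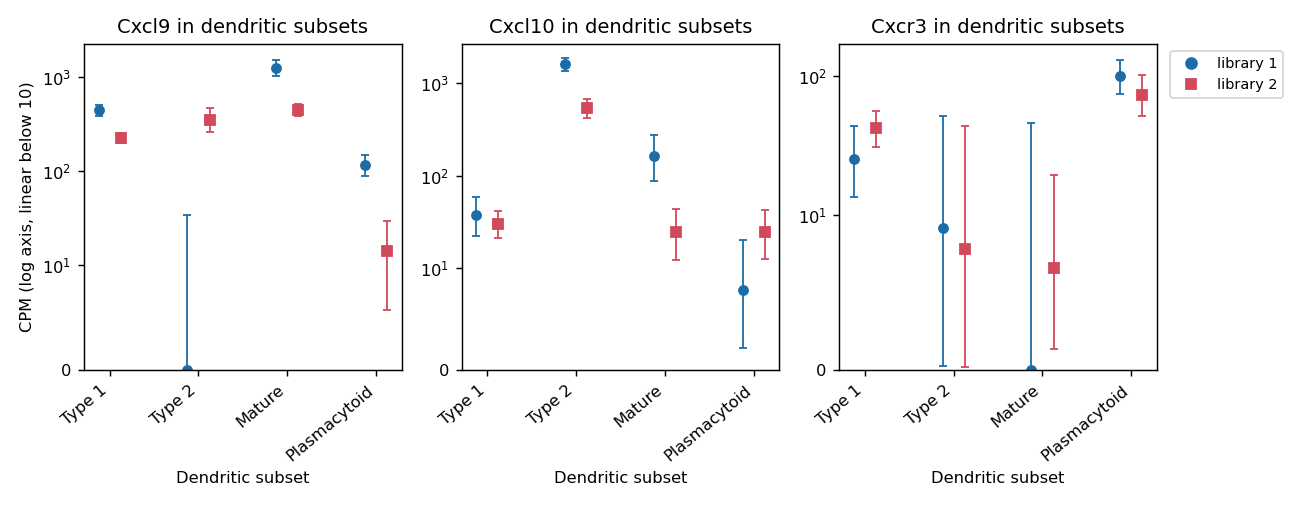
CPM of Cxcl9, Cxcl10 and Cxcr3 in 4 dendritic subsets of libraries 1 and 2, with exact Poisson 95% intervals, on an axis that is logarithmic above 10 and linear below it. Within library 2 Cxcl9 is lowest in plasmacytoid cells at 14.2 CPM, where Cxcr3 is at its highest for that library at 72.8 CPM, and the type 2 Cxcl10 values rest on 3 cells per library.

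Cxcl9 counted in the Foxp3+ class came from cells that also held antigen-presenting transcripts. The class stood at 63.2, 42.2 and 0 CPM, and against CD4 cells (2.35% of genes called) Cxcl9 was higher by 2.64 on the log2 scale (SE 0.51, adjusted p = 0.00233). In library 1, however, all 212 of its Cxcl9 UMIs lay in 2 cells, with 187 in 1 of them, and in library 2 the 124 lay in 14 cells. These cells had Cd74, the MHC class II invariant chain, at 26320 and 15320 CPM, against 222.5 and 1488 CPM in the Foxp3+ cells without Cxcl9, and median depths of 19146 and 11248 UMIs against 3838 and 3055. Foxp3 itself was 313.4 and 223.3 CPM in them against 541.5 and 463.5 CPM in the rest. The 10 and 38 Foxp3+ cells with over 5 UMIs of MHC class II genes and Lyz2 held all the Cxcl9 UMIs of the class, so no Cxcl9 was left in it without them. The part of doublets in these values was not tested.

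Cxcl10 in T cells behaved differently. It was found in 50, 77 and 9 CD4 cells (8.67%, 9.63% and 5.23%), in 63, 46 and 0 CD8 cells and in 60, 72 and 4 Foxp3+ cells of libraries 1 to 3, before thinning. After the T cells with over 5 antigen-presenting or Lyz2 UMIs were left out, 124 of 180 Cxcl10 UMIs remained in CD4 cells of library 1 and 200 of 230 in library 2. In CD8 cells all 236 remained in library 1 and 153 of 220 in library 2. Counted before that step, a single cell held up to 42 Cxcl10 UMIs. It was a CD4 cell of library 1 that also held Cxcl9 and was among those left out. Again before that step, 9 to 11 cells of each T cell class had more than 5 in each of libraries 1 and 2. The values below also include the cells left out. The CD8 cells with Cxcl10 had more of the type I interferon–responsive transcripts in both of these libraries, with Ifit1 at 167.9 and 179 CPM against 38.1 and 19.1 CPM and Isg15 at 280.6 and 572.9 CPM against 141.8 and 111.1 CPM. These cells of library 2 also had more Lyz2 (419.9 against 62.1 CPM) and more of the MHC class II gene H2-Ab1 (931 against 284.6 CPM), while in library 1 Lyz2 was 8.84 against 3.22 CPM and H2-Ab1 15.5 against 12.9 CPM. In CD4 cells Ifit1 was 51.3 against 46.7 CPM in library 1 and 99.99 against 18.2 CPM in library 2. The Cd3e of the CD8 cells with Cxcl10 was near that of the other CD8 cells in library 1, at 2220 against 2457 CPM, and lower in library 2, at 1429 against 1921 CPM. In library 3 no CD8 cell of 249 had Cxcl10, which allows up to 4.50 CPM. These are values from split cells of the same libraries, they were not tested, and free RNA as a source was not tested.

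The receptor lay mainly in T cells. Cxcr3 stood at 313.5, 196.3 and 162.7 CPM in Foxp3+ cells of libraries 1 to 3 (224.2 ± 79.2, SD, n = 3), 234.3, 154.7 and 130.5 CPM in CD4 cells (173.2 ± 54.3) and 140.9, 114.3 and 97.0 CPM in CD8 cells (117.4 ± 22.1). The libraries fell in the same order in all 3 classes, with library 1 highest. Although the ranges of the classes overlapped across libraries, the order Foxp3, CD4, CD8 held within each of the 3, with Foxp3+ above CD4 cells by 0.36 ± 0.05 and CD4 above CD8 cells by 0.53 ± 0.17 on the log2 scale (SD over libraries). NK cells stood at 72.3, 50.6 and 27.6 CPM (50.2 ± 22.4). Dendritic cells stood at 48.8, 41.4 and 41.1 CPM and did not differ from NK cells beyond the spread. Macrophages (0 and 14.8 CPM) and monocytes (8.25, 9.76 and 0 CPM) were the lowest. By cells, after thinning, a Cxcr3 UMI was found in 31.4%, 22.9% and 12.6% of Foxp3+ cells, 26.7%, 15.8% and 14.4% of CD4 cells and 16.7%, 10.96% and 6.84% of CD8 cells. Without thinning the Foxp3+ shares were 69.7%, 51.5% and 28.4%. The background share, in thinned monocytes, was 0.262%.

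T and NK cells against the other 4 classes (49.9% of genes called) gave a Cxcr3 difference of 2.43 on the log2 scale (SE 0.25, adjusted p = 5.26e-09), and it was 4.68 without library 2, whose B cells and macrophages held 186 and 137 Cxcr3 UMIs. Within T and NK cells the fit over all 8 classes called little. CD8 against CD4 cells (8.04% called) gave -0.59 (SE 0.30, adjusted p = 0.321), Foxp3+ against CD4 cells (2.35% called) gave 0.36 (SE 0.30, adjusted p = 0.797) and NK against CD8 cells (6.79% called) gave -1.09 (SE 0.43, adjusted p = 0.157). CD8 against Foxp3+ cells (9.42% called) gave -0.95 (SE 0.30, adjusted p = 0.0437), a call that was lost without library 1 (-0.79, adjusted p = 0.241), without library 3 (-1.01, adjusted p = 0.111) and with DESeq2 (adjusted p = 0.311). A fit on the T and NK classes alone, added after seeing the data, gave near-identical differences with smaller errors: -0.60 for CD8 against CD4 cells (SE 0.11, adjusted p = 0.000328), -0.94 for CD8 against Foxp3+ cells (adjusted p = 5.94e-07) and -1.06 for NK against CD8 cells (adjusted p = 0.000949). In that fit Foxp3+ against CD4 cells gave 0.34 (adjusted p = 0.0601), higher in 3 of 3 libraries. Monocytes had less Cxcr3 than dendritic cells by 2.36 (SE 0.70, adjusted p = 0.0154), which missed the threshold without library 1 (adjusted p = 0.0507).

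In the B cell class Cxcr3 stood at 41.3, 119.4 and 0 CPM. Against CD4 cells (30.1% of genes called) it was lower by 1.37 on the log2 scale (SE 0.34, adjusted p = 0.00224), but by 0.73 without library 1 (adjusted p = 0.187) and by 2.58 without library 2. The cells of this class were then divided at 10 Jchain UMIs, a split chosen after the class levels were seen. A Cxcr3 UMI was found in 18 of 28 Jchain-high cells of library 1 and in 50 of 79 of library 2 (64.3% and 63.3%). Of Jchain-low cells, which carried the B cell gene Ms4a1 at 894.2 and 649.6 CPM, 5.45% and 5.14% had one. Depth differed between these cells, with medians of 29986 and 23632 UMIs in the Jchain-high and 4036 and 2565 UMIs in the Jchain-low cells. In unscaled CPM, which allows for depth, Cxcr3 was 56.5 (41.5 to 75.1) and 80.0 (68.0 to 93.6) in Jchain-high cells against 19.6 (12.8 to 28.7) and 38.7 (26.1 to 55.3) in Jchain-low cells (exact Poisson 95% intervals, counting error only), with no overlap of the intervals within either library. The class's Cxcl10 also lay mainly in Jchain-high cells, at 91.4 and 60.01 CPM against 6.03 and 7.75 CPM, but in few of them. It was found in 5 of 28 Jchain-high cells of library 1, where 1 cell held 64 of their 76 UMIs, and in 16 of 79 of library 2. Library 3 had 1 Jchain-high cell, and this division was not tested.

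CD8 cells with a Cxcr3 UMI carried less Ccl4, Ccl3, perforin and granzyme B and more Tcf7 than CD8 cells without one. The comparison was made over summed UMIs of 374, 301 and 45 cells with Cxcr3 and 535, 677 and 204 without, in libraries 1 to 3, with library as a block, and 227 of 9329 genes were called (2.43%). Ccl4, an inflammatory chemokine, stood at 421.8, 646 and 428.9 CPM with Cxcr3 and 1206, 1866 and 672.3 CPM without, lower in 3 of 3 libraries (-1.37 on the log2 scale, SE 0.13, adjusted p = 1.28e-23). Tnfrsf9 (4-1BB), a costimulatory receptor that antigen induces, was lower by 1.40 (SE 0.13, adjusted p = 4.60e-23). Perforin (Prf1) was lower by 0.95 and granzyme B (Gzmb) by 0.78, with Gzmb at 243.2, 313.8 and 1012 CPM with Cxcr3 against 480.1, 837.7 and 678.4 CPM without, so that library 3 ran the other way, as it did for Prf1 (94.3 against 63.2 CPM). Ccl3 (-1.21) and Ifng (-0.57, adjusted p = 0.000494) were also lower, again against the direction of library 3. On the other side, Tcf7, the transcription factor of stem-like and memory T cells, was higher by 0.70 (adjusted p = 9.58e-05), and so were the interleukin-7 receptor Il7r (0.62), the egress receptor S1pr1 (0.50), its regulator Klf2 (0.46) and the β1 integrin Itgb1 (0.41). Il7r, S1pr1 and Klf2 ran the other way in library 3, at 171.5, 60.04 and 274.5 CPM with Cxcr3 against 222.1, 79.5 and 340.2 CPM without. Tcf7 stood at 102.2, 86.1 and 77.2 CPM against 58.9, 56.3 and 59.1 CPM and did not overlap, but its call was lost without library 1 (0.62, adjusted p = 0.606) and without library 2 (0.71, adjusted p = 0.320).

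By list, 5 of 21 tested genes of the T cell programme were higher and 2 lower (Prf1 and Gzmb), with a median of -0.07 against -0.01 over all genes. Of 8 chemokine-system genes tested, none were higher and 3 lower (Ccl3, Ccl4 and the receptor Cxcr6, -0.49). Of 9 type I interferon genes tested, Ifit1 (0.60) and Ifit3 (0.57) were higher and none lower. T-bet was at -0.31 (adjusted p = 0.319). Other genes named by their size were Trbv13-3 (1.01), a T cell receptor β variable segment, the cell cycle genes Top2a (0.99) and Hist1h4d (0.99), and Rflnb (0.80) among the higher, and Nrgn (-1.24), the integrin Itgav (-0.996) and the adaptor Tyrobp (-0.98) among the lower. Cells with Cxcr3 were deeper, with medians of 4730, 3510 and 2372 UMIs against 3398, 3302 and 2111. When cells were thinned to 1000 UMIs and divided again, 6 of 3396 genes were called, Ccl4 among them, and Top2a turned to -0.57. DESeq2 called 3 genes. Without the library block edgeR called 0 genes, with 75 at an unadjusted p under 0.05, and Ccl4 kept its size there (-1.30). Without library 1 there were 30 calls, without library 2 25, and without library 3 395.

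CD4 cells showed the same direction for the chemokines, with fewer genes called. Over 290, 275 and 32 cells with Cxcr3 and 287, 525 and 140 without, 50 of 8270 genes were called (0.605%). Median depth was 3306, 2920 and 2074.5 UMIs with Cxcr3 against 2647, 2304 and 1753 without. Ccl4 stood at 103.3, 199.7 and 63.0 CPM with Cxcr3 against 755.3, 920.1 and 131.6 CPM without (-2.47, SE 0.15, adjusted p = 1.89e-58). Ccl3 stood at 34.7, 85.2 and 0 CPM against 309.6, 393.6 and 42.7 CPM (-2.61, SE 0.18). Ccl5 was lower by 1.13, Ifng by 0.99 and the granule gene Nkg7 by 0.45, and Ifng was lower in each library, at 178, 250.8 and 88.2 CPM against 394.8, 406.2 and 330.8 CPM. Of the chemokine-system genes 3 of 8 were lower and none higher, of the interferon-γ axis 1 of 12 (Ifng), and of the T cell programme 1 of 20 (Nkg7). H2-Aa, H2-Eb1 and Cd74 were also lower (-1.89, -1.66 and -1.86), but without T cells of over 5 antigen-presenting or Lyz2 UMIs they were at -0.34, -0.33 and -0.44 and not called (adjusted p = 1.0, 1.0 and 0.763). Among the higher genes were Ly6a (0.52), Trbv13-3 (0.68), Stmn1 (0.70) and the interferon-induced Ifit3 (1.35), of which Ifit3 rested on library 3, with 378.2 against 17.8 CPM there, and gave 0.59 without it (adjusted p = 0.949). Cxcl10, the receptor's own ligand, was higher in CD4 cells with Cxcr3, at 126.8, 101.2 and 50.4 CPM against 37.6, 81.8 and 46.2 CPM (0.84, SE 0.20, adjusted p = 0.00544). That call rested on library 1 and was lost without it (0.28, adjusted p = 1.0), without library 3 (adjusted p = 0.446), with DESeq2 and after the antigen-presenting T cells were left out (0.73, adjusted p = 0.123). Leaving out libraries 1 to 3 in turn gave 16, 24 and 24 calls, and without the library block edgeR called 0 genes, with 50 at an unadjusted p under 0.05. In CD8 cells Cxcl10 did not differ at this depth (-0.08, SE 0.17, adjusted p = 0.964).

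**Figure D4:**
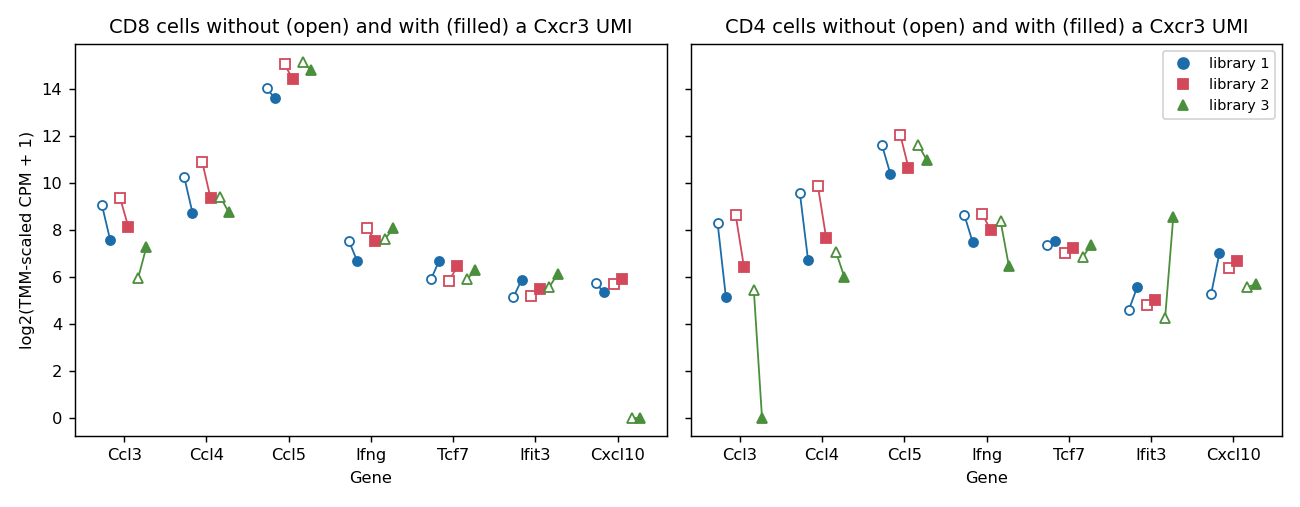
Levels, as log2(TMM-scaled CPM + 1), of 7 genes in CD8 (left) and CD4 (right) cells without (open) and with (filled) a Cxcr3 UMI, joined within each library. Ccl4 lies lower in cells with Cxcr3 in all 3 libraries of both classes, Ccl3 in CD8 cells of library 3 and Ifng in CD8 cells of library 3 run the other way, and Cxcl10 in CD4 cells differs mainly in library 1.

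Cells with a Cxcl9 UMI were compared with cells of the same class without one, in libraries 1 and 2. In monocytes (20 and 57 cells with, 29 and 70 without) 8 of 3076 genes were called (0.26%), all higher. Median depth was 9214.5 and 4929 UMIs with Cxcl9 against 7124 and 4388.5 without. The chemokine Ccl5 stood at 1619 and 7763 CPM with Cxcl9 against 574.2 and 2888 CPM without (1.47, SE 0.20, adjusted p = 0.00691). Also higher were Acod1 (1.59), which makes itaconate in activated macrophages, Spp1 (1.79), Calhm6 (1.65) and Serpina3g (2.83). Cxcl10 was not called (0.75, SE 0.22, adjusted p = 0.400). DESeq2 called 1 gene, and with cells thinned to 1000 UMIs edgeR called 0, with 39 at an unadjusted p under 0.05.

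In dendritic cells (19 and 71 cells with, 92 and 213 without) 500 of 7170 genes were called (6.97%). Cells with Cxcl9 were deeper, with medians of 17044 and 11200 UMIs against 10253.5 and 6070. After thinning only library 2 had enough cells on both sides (26 and 255), so these calls have no fit at equal depth. The interferon-γ–induced GTPase Gbp2 stood at 484.1 and 307.8 CPM with Cxcl9 against 71.7 and 68.2 CPM without (2.46, SE 0.22, adjusted p = 8.61e-05), and Gbp5 (1.40) and the checkpoint ligand Cd274 (1.63) were also higher, 3 of 12 tested genes of the interferon-γ axis with none lower. Of the chemokine system, Cxcl16 (1.74) and Ccl22 (2.35) were higher and Ccl3 (-3.34) and Ccl4 (-1.97) lower. The costimulatory receptor Cd40 was higher by 2.49, and Serpina3g (3.49), Tgm2 (3.69), Procr (2.52) and Ccnd2 (2.54) were the others named by size. Il12b, which encodes interleukin-12 p40, was called (3.14) on library 2 alone, at 306.5 against 21.9 CPM, since library 1 had 0 against 8.38 CPM. Atp1b1 (-5.09), Klk1 (-4.60), Klk1b27 (-4.68), Gm21762 (-4.66) and Atp2a1 (-4.33) were lower. The division also sorted the subsets, since Cxcl9 was found in 2 of 55 and 2 of 103 plasmacytoid cells but in 12 of 33 and 31 of 89 type 1 cells, and the part of subset make-up in these differences was not tested. Cxcr3 itself was lower in dendritic cells with Cxcl9 (15.2 and 22.3 CPM against 55.9 and 46.3 CPM, -1.31, adjusted p = 0.0400), a call lost with DESeq2 (adjusted p = 0.772), and Cxcl10 was not called (1.25, SE 0.66, adjusted p = 0.335).

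In macrophages only library 2 had enough cells on both sides (1063 with and 885 without a Cxcl9 UMI), so the values have no replicate and no test. Cxcl10 was 337.6 CPM with Cxcl9 and 121.1 CPM without, a difference of 1.48 on the log2 scale that was 1.18 when cells were thinned and divided again. Ccl5 was 5226 against 2573 CPM (1.022, thinned 1.04) and Gbp2 232.8 against 123.6 CPM (0.91, thinned 1.15). Cd274 (0.66) and Socs1 (0.51), the feedback inhibitor of interferon signalling, were also above 0, while the macrophage genes Apoe and Ms4a7 were at -0.12 and 0.01.

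Ifng and its receptor subunit Ifngr2 lay mainly in different classes. Ifng was a transcript of T cells, at a mean of 266.1 CPM in CD4, 196.4 in CD8 and 62.8 in Foxp3+ cells, and at 0.25 to 1.83 CPM in the myeloid classes (-5.74 in myeloid against lymphoid classes, adjusted p = 4.51e-10). Ifngr2, the signalling subunit, stood at 218.9 CPM in macrophages, 173.5 in monocytes and 124.6 in dendritic cells against 82.1 in B, 12.5 in CD4 and 4.48 in CD8 cells (5.28, adjusted p = 4.95e-16). Of all genes in that contrast 54.9% were called, 2594 higher and 2464 lower in myeloid classes. Of 13 tested genes of the axis, 8 were higher in myeloid classes, among them Gbp5, Gbp2, Irf8, Irf1, Ciita, Ifngr2 and Cd274, and 3 lower (Jak1, Ifngr1 and Ifng), with a median of 1.021 against -0.06 over all genes. Of 9 tested type I interferon genes 8 were higher and none lower (median 1.75), and Isg15 was highest in monocytes at 1206 CPM against 303 CPM in macrophages. In macrophages against monocytes, where 4.07% of all genes and neither ligand were called, Isg15, Rsad2 and Ifit1 were lower and no gene of the interferon-γ axis was called. Of 9 chemokine-system genes tested in myeloid against lymphoid classes, 3 were higher and 2 lower, a share near that of all genes, and of 4 other inducers 3 were higher (Il18, Tnf and Rela).

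Most genes of the T cell programme list were higher in T and NK cells, as was Cxcr3. In T and NK cells against the other classes, where 49.9% of all genes were called and 2288 of 9206 were higher, 18 of the 21 tested genes of the list were higher, with a median of 2.91 against 0.02 over all genes. Because the list was made largely of T and NK cell genes, this contrast cannot show a link to Cxcr3 itself. T-bet stood at a mean of 195 CPM in NK, 90.7 in CD8, 54.1 in CD4 and 35.9 in Foxp3+ cells, an order that runs against that of Cxcr3 in the same 4 classes. Cxcr6, the receptor of Cxcl16, stood at 519 CPM in CD8 and 215.6 in CD4 cells, so that CD8 cells led for Cxcr6 (higher than CD4 cells by 1.38, adjusted p = 0.00115) and not for Cxcr3.

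Over the 23 class sums, centred within library, genes whose log2 levels were most like Cxcl9 among 7695 candidates included Ptafr (Pearson's r 0.97), Aif1 (0.97), Cd300c2 (0.96) and Tnfaip2 (0.96). Those most like Cxcl10 were Phf11d (0.91), Osm (0.89), Cpd (0.87), Gbp5 (0.87) and 2510009E07Rik (0.87). Those most like Cxcr3 were Rnf157 (0.96), Jakmip1 (0.93), Fdxr (0.92), Hddc2 (0.91) and Ssbp3 (0.91). Cxcl9 and Cxcl10 had r = 0.73 with each other, and Cxcl10 was at rank 493 in likeness to Cxcl9. Cxcr3 had r = -0.53 with Cxcl9 and -0.45 with Cxcl10. The sums share 3 libraries and their depth, so these values are descriptions and carry no test.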

How the data were processed

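Single-cell RNA-Seq count matrices of 3 libraries were used as deposited: whole-number UMI counts per gene and cell barcode, which per the labels and file headers the authors made with Cell Ranger (5.0.1 for library 1, 6.1.2 for libraries 2 and 3) on mm10 from a 5′ 10x kit. Library 1 was read with the gene order of the other 2. As in the study's methods, barcodes under 300 UMIs, over 5000 genes or over 20% mitochondrial UMIs were left out. Doublets were not called.

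A cell entered a class with at least 3 UMIs of its lineage's markers (2 for monocytes). It held at most 2 UMIs of T, B, macrophage or dendritic markers of another lineage, while NK and monocyte markers were not limited. T cells were then classed by at least 1 UMI of Foxp3, of Cd4, or of Cd8a or Cd8b1, so that a class can rest on 1 UMI. CD4 and CD8 cells had no UMI of Foxp3 or of the other coreceptor, and Foxp3+ cells had no such condition. UMI counts were summed per class and library (at least 10 cells) and tested with edgeR 4.0.16 (R 4.3.3; TMM, filterByExpr, quasi-likelihood, Benjamini-Hochberg at 0.05 over all genes tested), with library as a block because classes of 1 library come from the same mice. P-values rest on the spread left between sums after the library block, estimated jointly over all classes in a fit. Macrophages and the monocyte and dendritic divisions had 2 libraries of separate mice, and the other classes and divisions 3. CPM is counts per 1e6 UMIs of a sum, with a pseudocount of 1 on log scales. A floor is 3 counts. Thinning drew 1000 UMIs per cell, leaving out shallower cells. Intervals are exact and cover counting error only. Alternatives included DESeq2 1.42.0, other filters, gates and depths, and each library left out. Test scripts were checked on simulated data.

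The members, markers, 5 gene lists and rules were chosen with earlier results of these data known. Gate limits were set after marker profiles were seen. Beyond members and list genes, the text names, for each with against without division, up to 5 genes in each direction by size (adjusted p under 0.05, the same direction in every library, mean of at least 50 CPM, in no gate), and the 5 genes most like each member (mean of at least 10 CPM). The division by Jchain (10 UMIs) was chosen after class levels were seen. Cxcl11 and Mx1 were not analysed here, and some genes that the rules name are not reported here.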

Additional observations from a re-analysis of the deposited data

How the results depend on the processing

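Over the alternatives to 18 class contrasts of the members, 200 values kept their direction and their side of the threshold, 12 lost the call, 7 gained it and 4 turned. Without the library block, which pairs classes of the same mice, Cxcl9 in monocytes against dendritic cells was 1.77 (adjusted p = 0.0871; DESeq2 1.93, adjusted p = 0.167), Cxcr3 in CD8 against Foxp3+ cells was -0.97 (adjusted p = 0.478; DESeq2 -0.96, adjusted p = 0.311), Cxcl10 in macrophages against monocytes turned to 0.21 and Cxcl10 in CD8 cells divided by Cxcr3 to 0.14, edgeR called 0 genes in the CD8 (75 at an unadjusted p under 0.05), CD4 (50) and monocyte (40) divisions, and 4 in dendritic cells. Cxcl9 in Foxp3+ against CD4 cells and Cxcr3 in divided dendritic cells also lost their calls, and no other class contrast of a member given in the report changed its call without the block. Cxcl10 in macrophages against monocytes ranged from -1.46 to 0.30 over libraries left out and was -1.39 with the strict gate. Cxcr3 ranged from -1.01 to -0.79 for CD8 against Foxp3+ cells and from -2.58 to -0.73 for B against CD4 cells. Cxcr3 in CD8 against CD4 cells was -0.60 in the fit on T and NK classes alone, which was added after seeing the data, and NK against CD8 cells was -1.06 there, -1.15 without the expression filter and -1.22 without the deepest 5% of cells. Cxcl9 in Foxp3+ against CD4 cells turned to -1.01 with the strict gate and -3.49 without T cells of antigen-presenting transcripts, where no Foxp3+ cell kept a count and the value is no bound, Top2a to -0.57 in thinned CD8 cells, and Cxcl10 in divided CD8 cells ranged from -0.39 to 0.24 over libraries left out. The causes of these changes were not tested.

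DESeq2 called 3 genes in the CD8, 4 in the CD4, 1 in the monocyte and 148 in the dendritic division. Thinned cells gave 6, 2 and 0 in the first 3 (39 monocyte genes at an unadjusted p under 0.05), no filter gave 0 in monocytes (185 unadjusted) and 795 in dendritic cells, leaving out libraries gave 25 to 395 in CD8 and 16 to 24 in CD4 cells, and 31 CD4 calls were left without T cells of antigen-presenting transcripts. Monocyte and dendritic divisions rest on 2 libraries, so leaving 1 out gives no test. As a mean over cells, Cxcr3 was 238.5 CPM in CD4, 155.4 in CD8, 321.2 in Foxp3+ and 78.6 in NK cells. Unthinned shares of cells were 63.0%, 37.3% and 20.3% for Cxcl9 and 42.4%, 38.0% and 6.43% for Cxcl10 in macrophages, monocytes and dendritic cells, and 34.4%, 30.0%, 49.9% and 16.7% for Cxcr3 in CD4, CD8, Foxp3+ and NK cells. At 500 UMIs Cxcl9 was found in 14.5% of monocytes and 3.20% of dendritic cells, and Cxcr3 in 10.1%, 12.7% and 3.95% of CD4, Foxp3+ and NK cells; with the strict gate the NK share was 4.0%. Library 3, at a median of 1726 UMIs, limits its smaller classes most, where 3 counts amount to 20.1 CPM in B, 35.6 in dendritic, 39.1 in monocyte and 48.2 in NK cells.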
